A study of Mus musculus with 3 samples.

Results

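The genes of NF-κB itself and of its feedback control were followed in single cells of the mouse hind paw during K/BxN serum transfer arthritis, a joint inflammation started by injecting serum of arthritic K/BxN mice. The 10 genes were chosen by name, all 10 were found among the 32285 genes of the deposited tables, and all passed the minimum of 20 UMIs (unique molecular identifiers, which count captured RNA molecules) in every comparison of day 5 with day 0. There were 3 libraries, 1 per group. The stromal day 0 library held CD45-negative, that is non-leukocyte, cells of paws at steady state, and the stromal day 5 library held CD45-negative cells of paws at day 5 after serum. The myeloid day 9 library held CD45-positive, CD11b-positive cells that lacked the neutrophil marker Ly6G, at day 9 after serum. Skin, muscles and tendons were removed before the paws were digested, per the labels. The strain, sex, age and number of mice behind a library were not given in the sources used here. Barcodes with fewer than 500 genes, fewer than 1000 UMIs or over 10% mitochondrial UMIs were dropped, which left 7368, 11172 and 5945 cells with medians of 9802, 9304 and 6741 UMIs. The libraries shared 22 to 35 cell barcodes in pairs, at most 0.449% of a library.

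NF-κB is a family of transcription factors made of paired subunits that wait in the cytoplasm, bound by IκB proteins. In the canonical pathway, receptors for tumour necrosis factor, interleukin-1 or microbial products activate the IκB kinase complex, IκBα is destroyed, and dimers of p50 (from Nfkb1) with RelA (Rela) or c-Rel (Rel) enter the nucleus. In the alternative pathway, receptors such as the lymphotoxin β receptor, CD40, RANK and the TWEAK receptor stabilise the kinase NIK, the Nfkb2 product p100 is cut to p52, and p52 acts with RelB (Relb). Several target genes of NF-κB hold it back: Nfkbia encodes IκBα, Tnfaip3 encodes the ubiquitin-editing enzyme A20, and Nfkb2 and Relb are themselves targets. Nfkbiz and Bcl3 encode atypical IκB proteins of the nucleus that act on p50 or p52 dimers at particular target genes, and Birc3 encodes c-IAP2, a ubiquitin ligase of the tumour necrosis factor receptor complex that also helps to keep NIK low. In arthritic joints the pathway is known for driving cytokine, chemokine and protease genes in fibroblasts and myeloid cells.

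On mm10, in the GENCODE M21 annotation, all 10 members were protein-coding genes whose identifiers matched the deposited tables. Of the canonical subunits, Nfkb1 (ENSMUSG00000028163) lay at chr3:135584655-135691547 on the minus strand, Rel (ENSMUSG00000020275) at chr11:23736847-23770970 on the minus strand and Rela (ENSMUSG00000024927) at chr19:5637483-5648130 on the plus strand. Of the alternative subunits, Nfkb2 (ENSMUSG00000025225) lay at chr19:46304320-46312385 on the plus strand and Relb (ENSMUSG00000002983) at chr7:19606217-19629438 on the minus strand. Of the IκB proteins, Nfkbia (ENSMUSG00000021025) lay at chr12:55489410-55492647, Nfkbiz (ENSMUSG00000035356) at chr16:55811375-55838899 and Bcl3 (ENSMUSG00000053175) at chr7:19808462-19822770, all on the minus strand. Of the ubiquitin regulators, Tnfaip3 (ENSMUSG00000019850) lay at chr10:19000910-19015657 and Birc3 (ENSMUSG00000032000) at chr9:7848699-7873186, both on the minus strand. Relb and Bcl3 are therefore near neighbours on chromosome 7.

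Since several members are known targets of the factor they belong to, their promoters were searched for the 10-letter κB consensus on both strands. The windows, from RefSeq on GRCm38.p6 (the build of mm10), run from 250 bases before to 50 after a gene's start. Of the members, 7 matched the table by symbol, with 10 windows, and 5 of those 7 genes held at least 1 match: Rel, Nfkb2, Nfkbia, Bcl3 and Tnfaip3. Of all 32851 windows of this length in the table, 4.51% held a match, and of the 27025 genes, 5.14% did. The table holds 3 windows for Nfkb2, all with a match, and 2 for Tnfaip3, the second with none, and the window listed first is shown for both. Rela and Birc3 had no match in this window. No sequence is shown for Nfkb1, Relb and Nfkbiz. The windows of 4 members with a match are printed because these genes changed with day or cell cluster. Rela is printed beside them as a subunit with no match. Rel, with a match, and Birc3, with none, are not printed. Rel was not higher at day 5 in fibroblasts and Birc3 was, so the windows shown are no comparison of matches with changes. Each runs 5′ to 3′ on the gene's own strand in lower case, and capitals mark letters that belong to a match, with overlapping matches on opposite strands joined.
Nfkb2 (chr19:46304487-46304786, plus strand): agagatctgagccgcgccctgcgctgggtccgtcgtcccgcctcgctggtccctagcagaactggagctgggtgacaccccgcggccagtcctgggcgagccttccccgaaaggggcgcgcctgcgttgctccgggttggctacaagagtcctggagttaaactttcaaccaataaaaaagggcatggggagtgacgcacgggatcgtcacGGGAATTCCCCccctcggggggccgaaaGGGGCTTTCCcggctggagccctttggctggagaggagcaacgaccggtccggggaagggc
Nfkbia (chr12:55492598-55492897, minus strand): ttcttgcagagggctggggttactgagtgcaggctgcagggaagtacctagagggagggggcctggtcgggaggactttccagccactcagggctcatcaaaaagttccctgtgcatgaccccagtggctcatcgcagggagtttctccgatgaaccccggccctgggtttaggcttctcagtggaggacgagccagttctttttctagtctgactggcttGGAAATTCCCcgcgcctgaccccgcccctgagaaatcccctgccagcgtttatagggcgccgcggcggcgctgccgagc
Bcl3 (chr7:19822706-19823005, minus strand): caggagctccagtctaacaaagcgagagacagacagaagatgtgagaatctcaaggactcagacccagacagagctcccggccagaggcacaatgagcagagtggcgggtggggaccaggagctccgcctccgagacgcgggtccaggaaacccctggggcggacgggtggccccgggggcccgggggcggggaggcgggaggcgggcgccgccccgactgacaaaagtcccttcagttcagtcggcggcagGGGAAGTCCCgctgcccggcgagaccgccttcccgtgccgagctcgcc
Tnfaip3 (chr10:19015361-19015660, minus strand): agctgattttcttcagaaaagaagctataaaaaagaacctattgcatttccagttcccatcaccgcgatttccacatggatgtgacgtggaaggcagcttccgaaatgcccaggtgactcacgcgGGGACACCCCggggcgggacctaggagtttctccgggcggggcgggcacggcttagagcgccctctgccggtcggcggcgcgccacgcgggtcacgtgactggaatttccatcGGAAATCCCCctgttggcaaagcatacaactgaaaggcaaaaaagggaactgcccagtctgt
Rela (chr19:5637291-5637590, plus strand): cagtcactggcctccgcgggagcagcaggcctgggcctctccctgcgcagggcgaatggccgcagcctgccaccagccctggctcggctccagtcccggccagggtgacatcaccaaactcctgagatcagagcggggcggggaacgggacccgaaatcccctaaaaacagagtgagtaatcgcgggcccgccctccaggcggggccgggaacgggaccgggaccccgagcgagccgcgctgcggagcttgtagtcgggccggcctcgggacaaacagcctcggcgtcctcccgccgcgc
In the Nfkb2 window shown, matches began 39 and 11 bases before the start, the former overlapping a match on the other strand. Nfkbia had its match 29 bases before the start, Tnfaip3 had matches 125 and 12 bases before it, and that of Bcl3 began 2 bases after it. A match describes these letters and is not evidence of binding.

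Levels below are UMIs of a gene per 1000000 UMIs summed over the cells of a group (CPM), with exact Poisson intervals, and ratios carry exact conditional intervals, all at 95%. With 1 library per group and cells that do not count as replicates, nothing was tested, and the intervals reflect the counting of UMIs alone. Day and library cannot be told apart in any of these comparisons. A ratio of 1.5 is used as a size, and each count of members past it is set beside the share of all measured genes past it. Classes were named from marker genes in clusters made without the 10 members, with fibroblast as the default name in the stroma. They were fibroblast-like (4821 cells at day 0 and 7439 at day 5), tenocyte-like (1059 and 1228), osteoblast-like (585 and 642) and blood endothelial-like (121 and 96), and are called by the short names below. The fibroblasts lay in the same clusters on the 2 days, but the shares of some clusters differed. Cluster 7, led by Efhd1, Cd248 and Pi16, held 26.3% of them at day 0 and 6.39% at day 5. Cluster 6, led by Lpl and Adh7, held 11.1% and 24.8%. Another 17.9% of the day 5 fibroblasts lay in cluster 11, led by Saa3, Ptx3 and Lcn2, which had only 32 cells at day 0.

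In fibroblasts, both alternative subunits were higher at day 5 than at day 0, while the canonical subunits were split. Nfkb2, the p100 gene, was at 19.2 CPM before serum and 32.9 CPM at day 5, a ratio of 1.72 (1.60 to 1.85). Relb was at 21.9 CPM and 33.7 CPM, a ratio of 1.54 (1.43 to 1.65). Nfkb1, the p105 gene, was at 69.2 CPM and 87.2 CPM, a smaller ratio of 1.26 (1.21 to 1.31). Thus the precursor genes of both pathways were higher at day 5, and that of the alternative pathway by the larger ratio. Rela went the other way, from 64.4 CPM to 54.6 CPM, 1.18-fold lower. Rel was at 9.33 CPM and 9.04 CPM, and its interval for the ratio, 0.862 to 1.09, included 1.

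All 5 regulator genes were higher in the day 5 fibroblasts. Bcl3 had the largest ratio of the 10 members, from 14.3 CPM to 26.7 CPM, or 1.86 (1.71 to 2.03). Tnfaip3 was at 19.5 CPM and 31.2 CPM, a ratio of 1.60 (1.49 to 1.73). Nfkbiz, at 112 CPM and 162 CPM, had a ratio of 1.45 (1.40 to 1.49). Nfkbia, at 391 CPM and 511 CPM, had a ratio of 1.31 (1.29 to 1.33), and Birc3, at 45.8 CPM and 54.4 CPM, one of 1.19 (1.13 to 1.25). In all, 4 of the 10 members (Nfkb2, Relb, Bcl3 and Tnfaip3) were at least 1.5-fold higher and none at least 1.5-fold lower, where 10.1% and 7.55% of 15176 measured genes were past those sizes. The members' median log2 ratio was 0.46, and that of all measured genes 0.01.

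**Figure D1:**
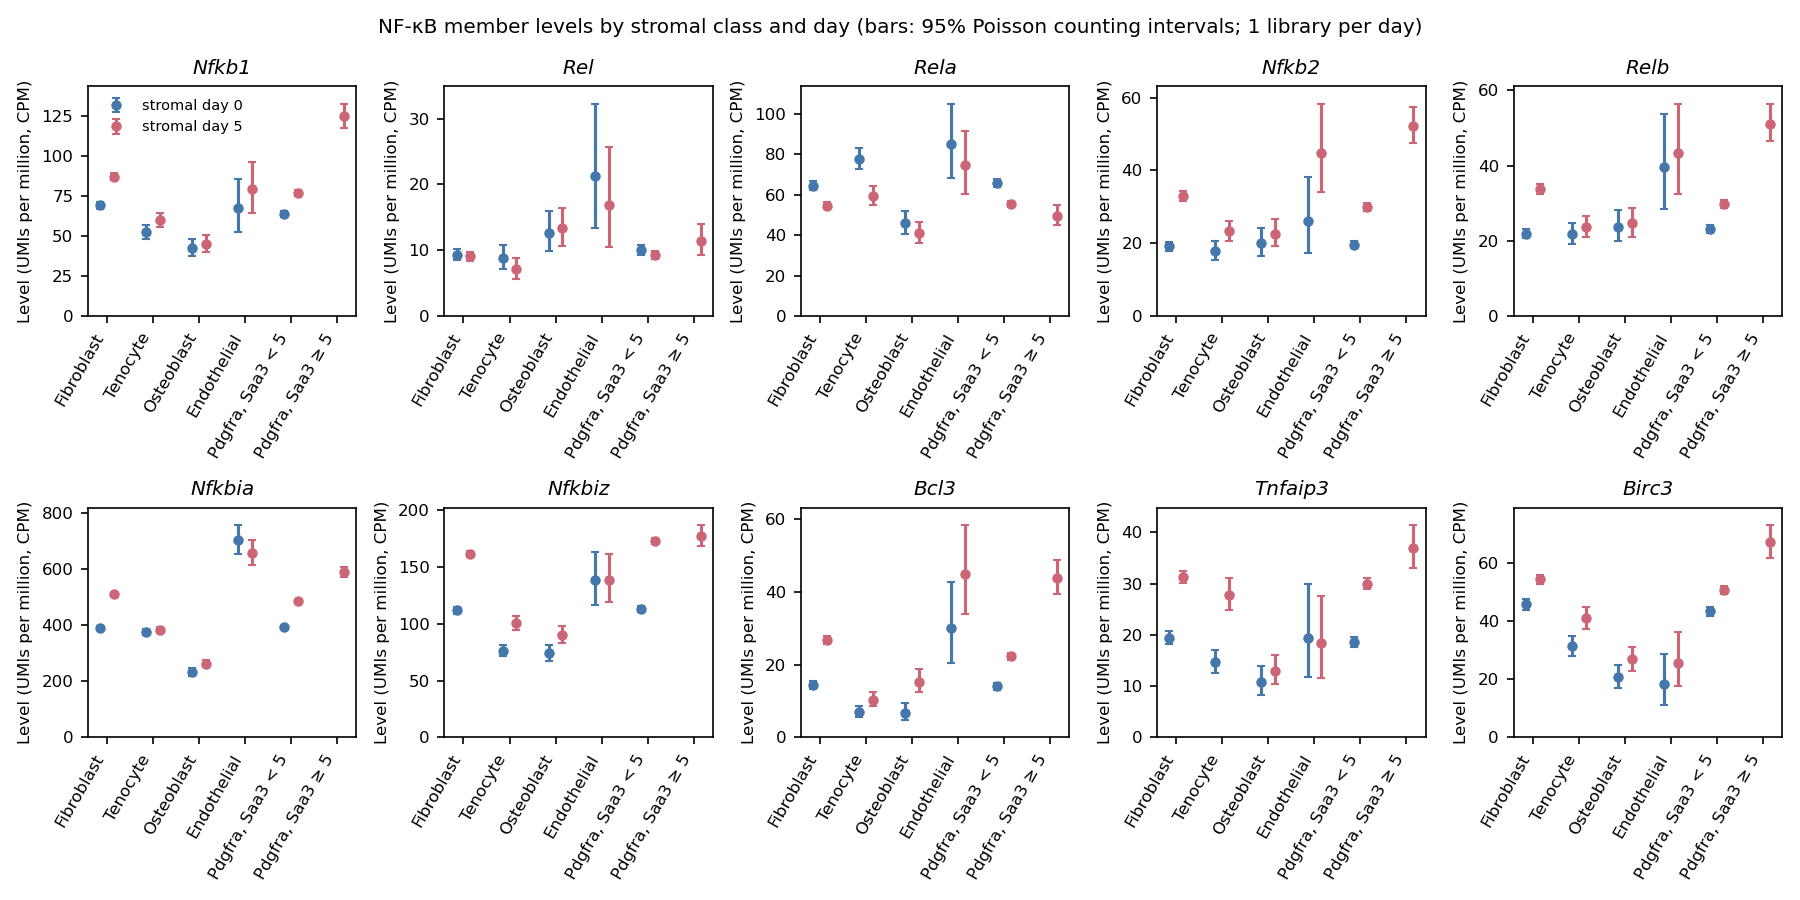
Level of each member in UMIs per 1000000 (CPM, linear axes from 0) in 4 stromal classes and in cells with a Pdgfra UMI below and at or above 5 Saa3 UMIs, with blue points for stromal day 0, red points for stromal day 5 and bars for 95% Poisson intervals. Nfkb2, Relb and Bcl3 stand highest or nearly so in the day 5 cells with at least 5 Saa3 UMIs, while Rela lies lower at day 5 than at day 0 in each of the 4 classes.

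The count of 4 depended on which clusters made up the class and on thinning of the UMIs. Without cluster 11, 0 of 10 members reached 1.5-fold: Nfkb2 was at 1.39, Tnfaip3 and Nfkbiz at 1.38, Relb at 1.25, Bcl3 at 1.18 and Nfkb1 at 1.07. Without cluster 4, led by Atf3, Rrad, Tnfaip6 and Il6, which held 637 fibroblasts at day 0 and 401 at day 5, 7 of 10 members did, with Bcl3 at 2.57, Tnfaip3 at 2.12 and Nfkb2 at 1.87. These clusters were left out after their values were seen. After each cell was thinned to 2000 UMIs, Nfkb2 alone passed, at 1.54. With equal weight for each cluster of at least 50 cells in both libraries, Nfkbiz alone passed, at 1.55. Bcl3 was thus the member that moved most with the clusters included, and Rela the least, between 0.847 and 0.871 when either cluster was left out.

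**Figure D2:**
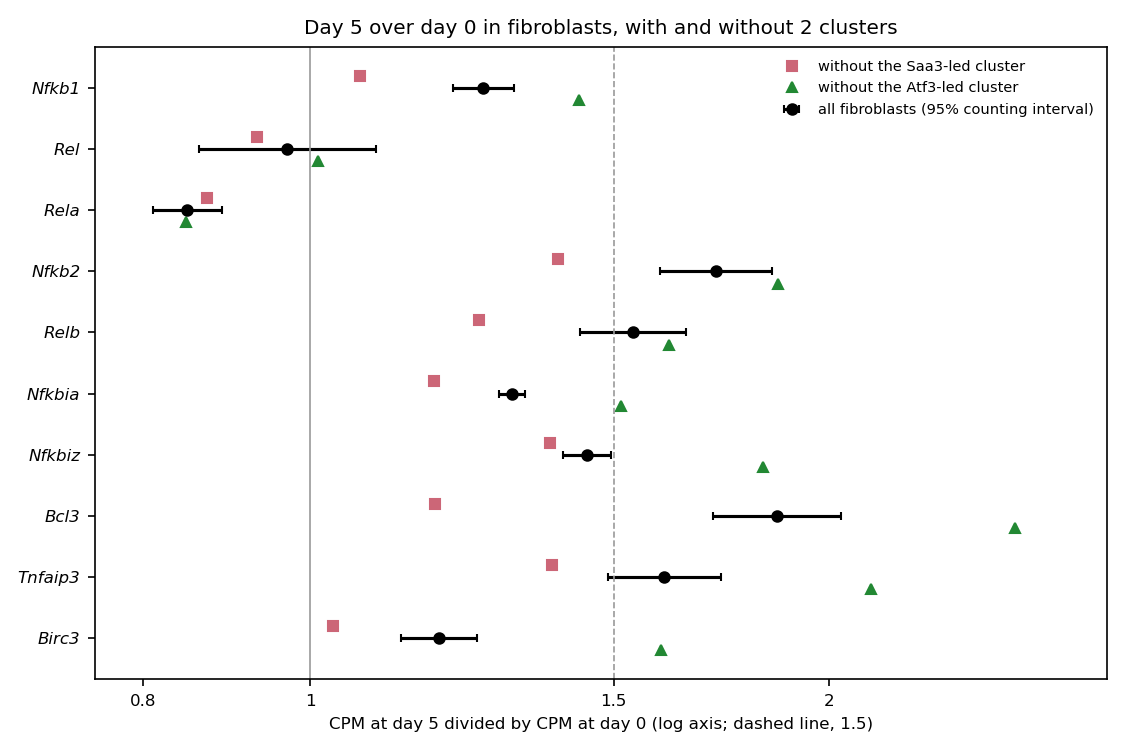
Ratio of the CPM at day 5 to that at day 0 in fibroblasts for each member (log axis), for all fibroblasts (black, with 95% counting intervals), without the Saa3-led cluster 11 (red squares) and without the Atf3-led cluster 4 (green triangles), with a solid line at 1 and a dashed line at 1.5. All red squares lie below 1.5, and 7 of the green triangles lie above it.

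The members differed in the number of clusters in which they were higher at day 5, with regulators and subunits interleaved. In the 15 stromal clusters with at least 50 cells in both libraries, which leave out cluster 11, Nfkbiz was higher at day 5 in 15, with a median ratio of 1.49. Nfkbia, Tnfaip3 and Nfkb2 were higher in 14 each, with median ratios of 1.24, 1.498 and 1.40. Nfkb1 and Relb were higher in 13 each, with medians of 1.14 and 1.11, Birc3 in 11 and Bcl3 in 10. Rel was higher in 6 and Rela in 2, with medians of 0.863 and 0.894. So small ratios above 1 were spread over most clusters, and the counting interval lay above 1 in 14 of 15 clusters for Nfkbiz, in 13 for Nfkbia and in 3 for Relb. In cluster 12, led by Hmcn2 and Smoc2, Bcl3 rested on 3 UMIs at day 0 and 92 at day 5, a ratio of 9.48 (3.14 to 46.8), and Birc3 had a ratio of 3.27 (2.04 to 5.55). In cluster 9, led by Penk and Emx2, Bcl3 was instead 1.78-fold lower while Nfkbiz had a ratio of 1.70.

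At day 5 the members did not all peak in the same cluster: of the 19 clusters with at least 50 cells, cluster 4 was highest for 6 members, cluster 11 for Relb and Bcl3, cluster 18 for Nfkb2, and cluster 2 for Rela, at 77.4 CPM. Cluster 11 had the highest Relb, at 52.3 CPM against a median of 25.5 over the clusters, and the highest Bcl3, at 54.6 CPM against 14.1. It came second for Nfkb1, at 125 CPM, and second for Nfkb2, at 50.9 CPM, behind cluster 18 at 56.3 CPM. Cluster 18 was led by haemoglobin genes and then by Timp1, Chil1, Inhba and Mmp3. Cluster 4 had the highest Nfkbia, Nfkbiz, Tnfaip3, Birc3 and Nfkb1 on both days. Its Nfkbia stood at 878 CPM on day 0 and 1120 CPM on day 5, its Nfkbiz at 325 CPM and 479 CPM, its Tnfaip3 at 59.0 CPM and 82.4 CPM, and its Birc3 at 147 CPM and 164 CPM. Its Relb was at 28.2 CPM and 30.2 CPM, above the medians of 22.5 CPM and 25.5 CPM over the clusters and the third highest at day 0. The same cluster was also highest for Nfkb2, at 32.0 CPM, and for Bcl3, at 41.8 CPM, at day 0, and the third highest for Nfkb2 at day 5, at 46.8 CPM. Cluster 11 in turn was the third highest for Nfkbia at day 5, at 656 CPM.

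**Figure D3:**
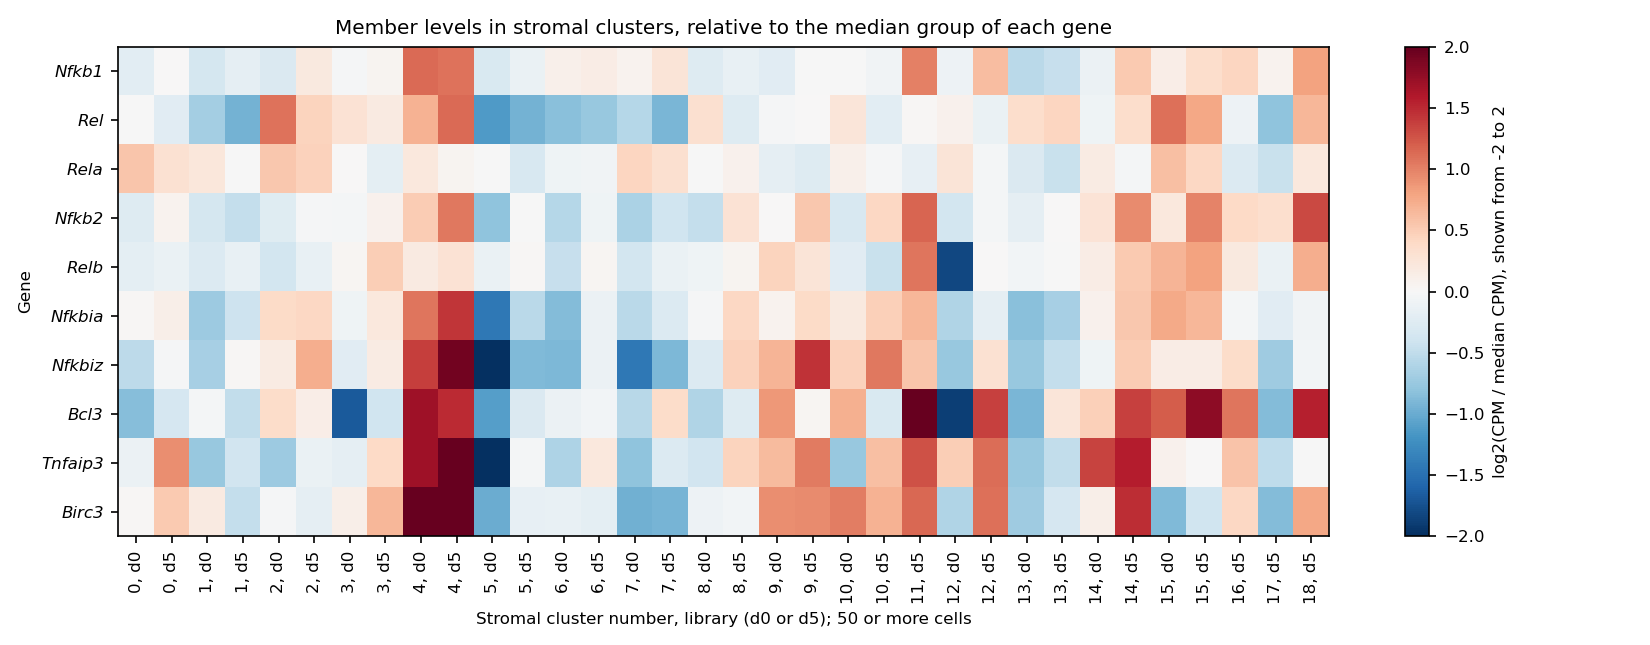
Level of each member in each stromal cluster and library with at least 50 cells, as log2 of the CPM divided by that gene's median over these 34 groups (colours shown from -2 to 2, red above the median). Cluster 4 is red on both days for Nfkbia, Nfkbiz, Tnfaip3 and Birc3, cluster 11 (day 5 only) for Nfkb1, Nfkb2, Relb and Bcl3, and Rela varies little.

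A fixed list of 23 immediate early and stress genes, which tissue digestion can also induce, moved with the peak of Nfkbia and Nfkbiz. Summed, it came to 36653 CPM in cluster 4 on day 0 and 45335 CPM on day 5, against 19089 CPM and 21096 CPM in all fibroblasts, and all 23 genes were above 0 in each. In cluster 11 it was 18348 CPM at day 5. Over the 34 groups of cluster and library, Pearson's r with that sum was 0.84 for Nfkbiz, 0.75 for Tnfaip3, 0.74 for Nfkbia and 0.67 for Birc3, but 0.35 for Nfkb2, 0.02 for Rela and 0.01 for Relb. These groups share libraries and depth and are not independent. The part of digestion in the levels of these members was not tested. RNA of leukocytes in stromal droplets was also higher at day 5: a list of 10 leukocyte genes summed to 3.15 CPM in fibroblasts at day 0, with 2 genes at 0, and to 24.9 CPM at day 5, mostly S100a8 and S100a9. In cluster 11 that sum was 5.96 CPM. Over the same 34 groups, r with the leukocyte sum was 0.59 for Relb, 0.57 for Nfkb2, 0.54 for Bcl3 and 0.42 for Nfkbia, and its part in their levels was not tested. Without the cells that held a UMI of Ptprc, S100a8 or S100a9, the count of members past 1.5-fold in fibroblasts stayed at 4.

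Cells with a Pdgfra UMI were then split at 5 Saa3 UMIs, Saa3 being an acute-phase gene of inflamed fibroblasts. At day 5, 437 of 9397 such cells had at least 5, and at day 0 only 6 of 6165 did. The cells at or above 5 were deeper, with a median of 16996 UMIs against 9651. They had higher levels of both alternative subunits than the 8960 other Pdgfra cells of the same library. Nfkb2 was at 52.2 CPM against 29.8 CPM, a ratio of 1.75 (1.58 to 1.94), and Relb at 51.2 CPM against 29.8 CPM, a ratio of 1.72 (1.55 to 1.90). Nfkb1, of the canonical side, was at 125 CPM against 77.0 CPM, a ratio of 1.62 (1.52 to 1.73), so that both precursor genes were higher. Rel had a ratio of 1.23 (0.984 to 1.52), and Rela was 1.12-fold lower.

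Among the regulators, Bcl3 stood out at 43.9 CPM against 22.2 CPM, a ratio of 1.97 (1.76 to 2.20). Birc3 had a ratio of 1.32 (1.21 to 1.44), Tnfaip3 one of 1.24 (1.10 to 1.39) and Nfkbia one of 1.21 (1.18 to 1.25). Nfkbiz was at 177 CPM against 173 CPM, and its interval of 0.974 to 1.08 left little room for a difference in counting terms. In this comparison 4 of 10 members (Nfkb1, Nfkb2, Relb and Bcl3) were at least 1.5-fold higher and none at least 1.5-fold lower, against 7.94% and 25.8% of 15159 genes. The median log2 ratio was 0.36 for the members and -0.17 for all genes. The scaling shifted these values: edgeR's TMM scaling moved every log2 ratio up by 0.12 and DESeq2's size factors by 0.13, relative to which the order of the members is the same.

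The level of these members went with cluster 11 more than with the Saa3 count inside it. Of the 437 cells with at least 5 Saa3 UMIs, 301 (68.9%) lay in cluster 11, and another 960 Pdgfra cells of that cluster had fewer than 5. Within the cluster, cells at or above 5 had Relb at 57.0 CPM and those below 5 at 50.5 CPM, a ratio of 1.13 (0.988 to 1.29). Nfkb2 had a ratio of 1.13 (0.990 to 1.29), Nfkb1 one of 1.19 (1.09 to 1.29) and Bcl3 one of 0.849 (0.739 to 0.973). By contrast, cells below 5 in cluster 11 had much higher levels than cells below 5 in the other clusters, with Bcl3 at 57.0 CPM against 16.2 CPM, a ratio of 3.51 (3.21 to 3.82). The same comparison gave 1.92 for Relb, 1.85 for Nfkb2, 1.70 for Nfkb1, 1.68 for Birc3, 1.63 for Tnfaip3, 1.44 for Nfkbia and 1.08 for Nfkbiz. Rela was at 51.2 CPM inside and 56.1 CPM outside the cluster. Cluster 11 was made without the members but with all other variable genes, Saa3 among them, so these ratios describe the cluster and test nothing.

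**Figure D4:**
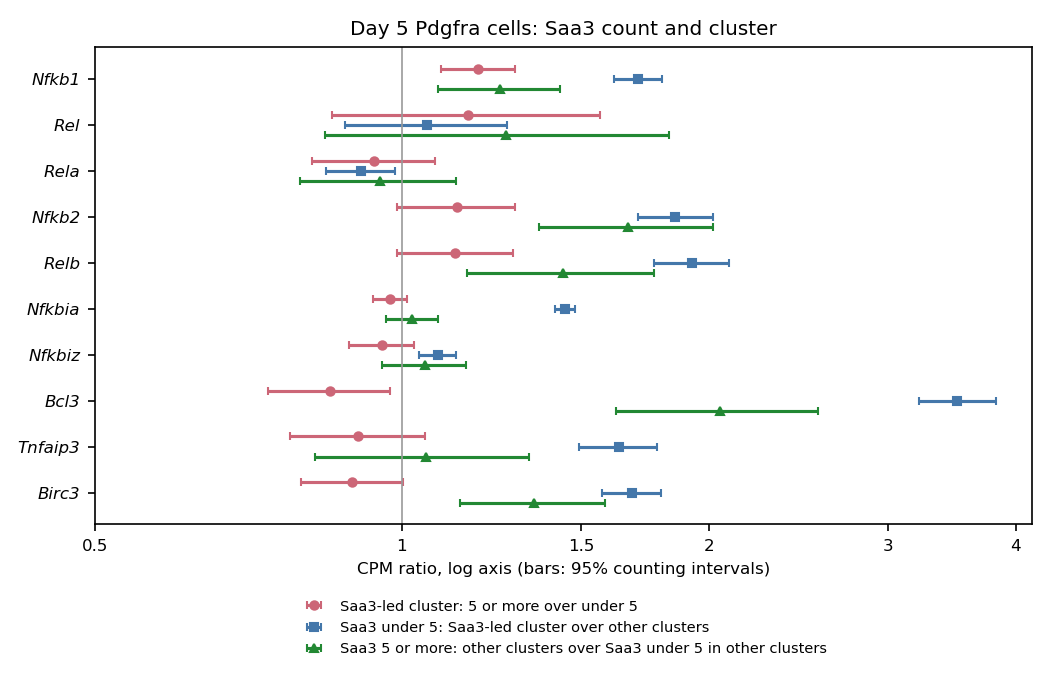
CPM ratios of each member among day 5 Pdgfra cells (log axis, bars for 95% counting intervals). Red compares cells with at least 5 and fewer than 5 Saa3 UMIs inside cluster 11, blue compares cluster 11 with other clusters among cells with fewer than 5, and green compares cells with at least 5 and fewer than 5 outside cluster 11. For all members but Rel, the blue point lies furthest from 1, with Bcl3 at 3.51, while the red points stay between 0.849 and 1.19.

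Outside cluster 11, the 136 cells with at least 5 Saa3 UMIs still had Bcl3 at 33.3 CPM against 16.2 CPM in the 8000 others, a ratio of 2.05 (1.62 to 2.56). Nfkb2 had a ratio of 1.67 (1.36 to 2.02) and Relb one of 1.44 (1.16 to 1.77), while Nfkbia, Nfkbiz and Tnfaip3 lay between 1.02 and 1.06. Of those 136 cells, 40 were in cluster 18 and 21 in the cycling and mural-gene cluster 16. By Saa3 count over all day 5 Pdgfra cells, those of cluster 11 included, Relb was at 29.5 CPM in cells with none. It was at 33.4 CPM with 1 to 4, 49.1 CPM with 5 to 19, 45.6 CPM with 20 to 99 and 58.7 CPM with at least 100. These steps were not split by cluster, and Relb was at 37.7 CPM in the 136 cells outside cluster 11. Bcl3 was at 21.9, 26.6, 39.8, 41.5 and 49.0 CPM over the same steps. Just below the limit, the 47 cells with 3 or 4 Saa3 UMIs had Relb at 42.0 CPM (29.4 to 58.1), and the 19 cells with 5 or 6 had it at 52.1 CPM (28.5 to 87.3), so the step at 5 was not resolved.

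The Pdgfra cells below 5 Saa3 UMIs were compared between the days on their own. Here Tnfaip3 and Bcl3 had the largest ratios, while the other regulators and the subunits were interleaved. Tnfaip3 was at 18.6 CPM on day 0 and 29.9 CPM on day 5, a ratio of 1.61 (1.51 to 1.72). Bcl3 was at 14.1 CPM and 22.2 CPM, a ratio of 1.58 (1.47 to 1.71). Nfkbiz was at 113 CPM and 173 CPM, a ratio of 1.52 (1.48 to 1.57). Nfkb2 was at 19.6 CPM and 29.8 CPM, a ratio of 1.52 (1.42 to 1.62), whereas Relb had 1.29 (1.21 to 1.37), Nfkbia 1.24, Nfkb1 1.21 and Birc3 1.17. Rela was 1.19-fold lower. In all, 4 of 10 members were at least 1.5-fold higher and none at least 1.5-fold lower, against 10.0% and 7.34% of 15850 genes. The count of 4 became 1 after thinning each cell to 2000 UMIs and 1 when the CPM of single cells was averaged. Leaving out cluster 11 as well left 1 member past that size, with Nfkbiz at 1.503 and Tnfaip3 at 1.48, and put Bcl3 at 1.16.

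Taken as whole classes, tenocytes and osteoblasts showed few such differences. In tenocytes, Tnfaip3 was at 14.7 CPM on day 0 and 27.8 CPM on day 5, a ratio of 1.90 (1.56 to 2.30), and was the only member at least 1.5-fold higher, where 9.74% of 12517 genes were. Bcl3 came just under 1.5, on 77 and 119 UMIs, and Nfkbiz had a ratio of 1.32 (1.21 to 1.44). Nfkbia, at 375 CPM and 383 CPM, differed little. Rela was 1.31-fold lower, at 77.6 CPM and 59.4 CPM, and no member was at least 1.5-fold lower, against 8.85% of genes. The class mixes 2 clusters: cluster 0, led by Cytl1 and Angptl7, held 79.2% of the tenocytes at day 0 and 56.4% at day 5, and cluster 5, led by Coch and Fmod, held the rest. Nfkbia had a ratio of 1.06 (1.01 to 1.11) in cluster 0 and 1.86 (1.64 to 2.11) in cluster 5. Nfkbiz had ratios of 1.41 and 2.65, and Tnfaip3 of 2.05 and 3.97, the last on 9 UMIs at day 0. In both tenocyte clusters these regulators were thus higher at day 5. Of the 10 members, 6 were at least 1.5-fold higher in cluster 5 and 1 in cluster 0. The members' median log2 ratio was 0.81 in cluster 5 (0.04 for all genes) and 0.28 in cluster 0 (-0.01 for all genes). The class as a whole therefore hides larger ratios in cluster 5, and the difference between the clusters was not tested. The immediate early list summed to 13206 CPM in tenocytes on day 0 and 16352 CPM on day 5. From that list, Fos was at 1109 CPM and 2097 CPM in cluster 5, and at 2606 CPM and 3919 CPM in cluster 0. Atf3 was at 40.0 CPM and 78.4 CPM in cluster 5, and at 304 CPM and 338 CPM in cluster 0. The part of this list in the ratios was not tested.

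In osteoblasts, Bcl3 was at 6.85 CPM on day 0 and 15.3 CPM on day 5, a ratio of 2.24 (1.53 to 3.35) on 38 and 99 UMIs. It was the only member at least 1.5-fold higher, where 7.77% of 12042 genes were, and no member was at least 1.5-fold lower, against 5.42%. Nfkbiz had a ratio of 1.22 (1.08 to 1.39) and Birc3 one of 1.29 (1.02 to 1.65). The subunit genes lay between 0.894 (Rela) and 1.13 (Nfkb2), with intervals that included 1. In blood endothelial cells, Nfkb2 was at 26.2 CPM and 44.9 CPM, a ratio of 1.72 (1.07 to 2.83) on 27 and 56 UMIs, and was the only member past 1.5-fold upward, where 16.2% of 9234 genes were, and none was past it downward, where 19.7% were. The leukocyte list summed to 10.7 CPM in that class at day 0 and to 1126 CPM at day 5, and its part in the Nfkb2 value was not tested. Nfkbia, at 704 CPM and 659 CPM, was not higher there at day 5.

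The rest of the pathway was read from fixed lists in fibroblasts, day 5 against day 0. Of all 15176 measured genes, 10.1% were at least 1.5-fold higher and 7.55% at least 1.5-fold lower. Of 20 canonical signalling genes, 1 was at least 1.5-fold higher and none lower: Tlr2, a receptor for bacterial lipoproteins, at 2.20 (1.99 to 2.44), followed by the adaptor Traf2 at 1.49, while Traf6 was 1.36-fold lower. The list's median log2 ratio was 0.02, next to 0.01 for all genes. Of 9 measured genes of alternative signalling, 1 was higher: Tnfsf11, the RANK ligand gene, at 0.586 CPM and 7.72 CPM, a ratio of 13.2 (9.09 to 19.9), and the list's median log2 ratio was 0.27. Tnfsf13b, the BAFF gene, had 1.30, and the kinase gene Chuk was at 19.4 CPM and 19.3 CPM. Of 2 further IκB genes, Nfkbie had a ratio of 2.42 (2.06 to 2.86) and Nfkbib one of 1.30. Of 9 other inhibitors, the A20-binding protein gene Tnip1 was higher, at 1.69 (1.57 to 1.83), N4bp1 had 1.36 and the deubiquitinase gene Otulin was 1.17-fold lower.

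A list of known targets, nearly all outside the pathway, differed more widely than the members. Tnfsf11 is on this list and on that of alternative signalling, so it is counted in both. Zfp36 is likewise on the inhibitor and immediate early lists, and Chuk on both signalling lists. Of 24 measured targets, 18 were at least 1.5-fold higher at day 5 in fibroblasts and none at least 1.5-fold lower. Of all genes, 10.1% and 7.55% were past those sizes. The targets' median log2 ratio was 1.34. Ccl20, a chemokine gene, had 0 UMIs at day 0 and 318 at day 5, at least 64.8-fold higher against a floor of 3 UMIs in the group. Csf3, the granulocyte growth factor gene, had 1 UMI and 145 UMIs, a ratio of 88.7 (15.7 to 3528). Csf1 was 1.20-fold lower. The list was written with earlier results of these data known, so its direction is no independent evidence. Of the 23 immediate early genes, 2 were at least 1.5-fold higher, Fosl1 at 3.22 and Egr3 at 1.54, and Hspa1b was 1.45-fold lower.

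The same lists were read in cells with at least 5 Saa3 UMIs, against other Pdgfra cells at day 5. Of all 15159 measured genes, 7.94% were at least 1.5-fold higher there and 25.8% at least 1.5-fold lower. A ligand gene and a receptor gene of the alternative pathway were among those higher. Of its 9 measured signalling genes, 2 were at least 1.5-fold higher: Tnfsf11 at 4.59 (3.91 to 5.38) and Tnfrsf12a, the TWEAK receptor gene, at 2.46 (2.23 to 2.71). Tnfsf12, which encodes TWEAK itself, was 1.72-fold lower. Of 20 canonical genes, 2 were higher, with Tlr2 at 2.36, while Tlr4 was 1.33-fold and Ikbkg 1.37-fold lower. Nfkbie had a ratio of 2.95 (2.48 to 3.50) and Nfkbib one of 1.27. Of 9 other inhibitors, 2 were higher, with the ribonuclease gene Zc3h12a at 1.88, while the mRNA decay factor genes Zfp36 and Rc3h1 were 1.42-fold and 1.35-fold lower. Of 25 measured targets, 14 were higher and 3 lower, with Lcn2 at 9.17 and Ptx3 at 8.67, and Ccl5, with 0 UMIs against 138, at least 3.85-fold lower. The immediate early list summed to 16981 CPM in these cells and to 21528 CPM in the others, and the leukocyte list to 7.21 CPM and 20.6 CPM.

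Over the 34 groups of cluster and library, the members themselves varied together to different degrees. Pearson's r of log2 CPM was 0.87 for Nfkbia with Nfkbiz, 0.79 for Nfkbiz with Birc3, 0.76 for Nfkbiz with Tnfaip3, 0.69 for Nfkb1 with Nfkb2 and 0.67 for Nfkb2 with Relb. Pairs of a subunit and a regulator reached similar values, with 0.73 for Nfkb1 with Bcl3, 0.70 for Relb with Bcl3, 0.69 for Nfkb2 with Nfkbia and with Bcl3, and 0.68 for Nfkb2 with Tnfaip3. Rela had its lowest values with Birc3 at -0.14 and with Relb at -0.13. Among 5893 other genes, those closest to the mean of Nfkb2 and Relb were Aprt (0.80), Prps1 (0.79), Tnip1 (0.78), Ptpn2 (0.75) and Snu13 (0.73). Those closest to the mean of Nfkbia, Nfkbiz, Tnfaip3 and Bcl3 were Bag3 (0.86), Ccnl1 (0.85), Kdm6b (0.82), Egr1 (0.82) and Gadd45g (0.82). All are descriptions over groups that share libraries and depth.

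In the day 9 myeloid library, classes were named in the same way, and 9 of 10 members were at least 2-fold apart between the highest and the lowest of 7 named classes. So were 85.3% of 12821 measured genes, so the count says little about the members. The 105 migratory dendritic-like cells, marked by Ccr7, Fscn1 and Ccl22, had the highest level of 8 members. Relb was at 401 CPM there (359 to 446) and at 78.7 CPM in conventional dendritic cells, a ratio of 5.09 (4.40 to 5.89). Rel was at 886 CPM (824 to 952) and 321 CPM, a ratio of 2.76 (2.53 to 3.01), Birc3 had a ratio of 2.49, Nfkb2 of 1.94 and Nfkb1 of 1.66. Nfkbiz had 1.06 (0.950 to 1.19) and Rela 1.26 (0.993 to 1.58), which their counts did not separate from 1. Dendritic cells that move to lymph nodes are known for RelB, and in these data Relb was also the member with the widest span of classes, 27.2-fold down to 14.7 CPM in the neutrophil-like cluster.

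Nfkb1, Nfkb2, Relb, Nfkbia, Bcl3 and Birc3 were highest in migratory dendritic cells and lowest in neutrophils. Rel, Rela, Nfkbiz and Tnfaip3 were lowest in osteoclasts. The order of classes thus differed between members, but it did not split subunits from regulators. For Relb it ran from migratory and conventional dendritic cells through NK or T cells (70.2 CPM), macrophages (37.0 CPM), osteoclasts (35.4 CPM) and monocytes (27.7 CPM) to neutrophils, and the intervals of macrophages and osteoclasts overlapped. Nfkb2 ran from 256 CPM in migratory dendritic cells through 132 CPM in conventional dendritic cells and 130 CPM in NK or T cells, which did not differ beyond counting error, down to 45.8 CPM in neutrophils. Nfkb1 ran from 588 CPM to 108 CPM, with the same classes at the ends. Nfkbiz was highest in monocytes at 605 CPM and lowest in osteoclasts at 43.6 CPM, where it was 5.73-fold lower than in macrophages (250 CPM). The 2020 macrophages, named by default, pool unlike clusters, so their level is a blend. Their Nfkbiz was at 559 CPM in cluster 3, 365 CPM in cluster 1 and 296 CPM in cluster 7. It was at 85.4 CPM in cluster 4, whose 475 cells had no macrophage marker among the 10 leading genes. Nfkbia was not low in osteoclasts, at 1211 CPM against 949 CPM in macrophages, so these IκB genes parted there. Tnfaip3 was highest in NK or T cells at 401 CPM and lowest in osteoclasts at 117 CPM. Bcl3 was at 107, 105, 88.7 and 85.7 CPM in migratory dendritic cells, monocytes, conventional dendritic and NK or T cells, whose intervals overlapped, and at 35.2 CPM in neutrophils. Rela varied least, from 106 CPM in migratory dendritic cells to 53.0 CPM in osteoclasts. The neutrophil-like cluster, of 81 cells, was led by Camp, Ngp, Elane and Mpo, and the sort removed Ly6G-positive cells.

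**Figure D5:**
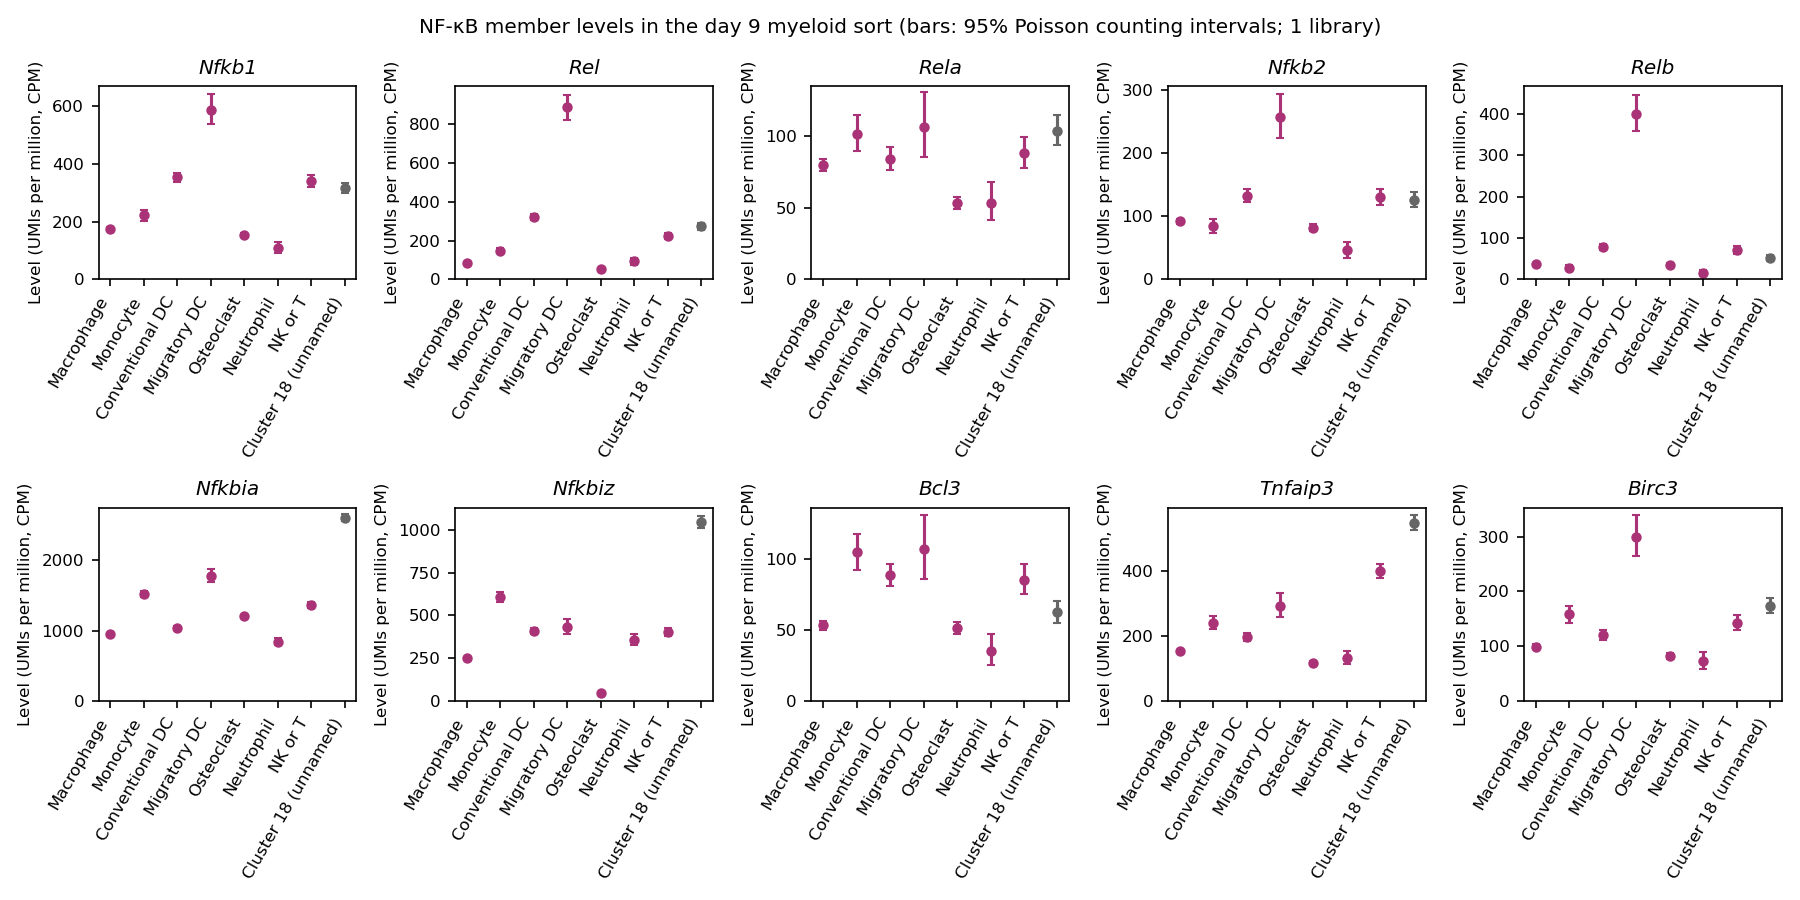
Level of each member in UMIs per 1000000 (CPM, linear axes from 0) in 7 named classes and in the unnamed cluster 18 of the day 9 myeloid library, with bars for 95% Poisson intervals. Migratory dendritic cells (DC) are highest among the named classes for 8 members, and cluster 18 (grey) lies above the 7 named classes for Nfkbia, Nfkbiz and Tnfaip3.

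Cluster 18 of that library had 533 cells led by Ptgs2, Thbs1, Il1b, Tnf and Cxcl2. In it 7 monocyte and 8 macrophage markers were detected, and monocyte was the class that met the first limits for a name. The cluster stayed unnamed because no monocyte marker was among its 10 leading genes and fewer were detected than of macrophage, the default. It had the highest Nfkbia, at 2609 CPM, the highest Nfkbiz, at 1045 CPM, and the highest Tnfaip3, at 550 CPM, of the 19 myeloid clusters with at least 50 cells. All 3 genes were higher in cluster 22, which held 27 cells, with Nfkbia at 5627 CPM, Nfkbiz at 4804 CPM and Tnfaip3 at 2063 CPM. For cluster 18 against the pooled macrophage class, the ratios were 2.75 (2.68 to 2.82) for Nfkbia, 4.19 (4.01 to 4.37) for Nfkbiz, 3.59 (3.39 to 3.80) for Tnfaip3 and 3.16 (2.92 to 3.42) for Rel. They were 1.41 for Relb, 1.37 for Nfkb2 and 1.17 for Bcl3. Against monocytes, the ratios of cluster 18 were smaller for Nfkbia (1.71, 1.65 to 1.78), Nfkbiz (1.73, 1.63 to 1.83), Tnfaip3 (2.28) and Rel (1.84). They were larger than against macrophages for Nfkb2 and for Relb (1.89). Bcl3 was lower in cluster 18 than in monocytes, at a ratio of 0.596 (0.499 to 0.711), so its direction depended on the class compared. The immediate early list summed to 20236 CPM in cluster 18, to 10861 CPM in macrophages and to 17582 CPM in monocytes, and its part in these levels was not tested. The unnamed clusters 0, led by Spp1, Cxcl3 and Arg1, and 6, led by Vsig4, Lyve1 and Gpr34, lay apart for the regulators: Nfkbia was at 1699 CPM and 322 CPM, Tnfaip3 at 390 CPM and 76.7 CPM, and Nfkbiz at 541 CPM and 259 CPM. Their Relb was close, at 32.8 CPM (27.5 to 38.7) and 26.7 CPM (21.2 to 33.1).

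Set side by side, the day 5 stromal and the day 9 myeloid libraries differed most for Rel. It was at 9.44 CPM in all stromal cells and 135 CPM in all cells of the myeloid sort, 14.3-fold apart. Tnfaip3 was at 29.5 CPM and 206 CPM, 7.00-fold apart, whereas Rela, at 54.6 CPM and 76.3 CPM, and Relb, at 31.3 CPM and 46.1 CPM, were 1.40-fold and 1.47-fold apart. These libraries differ in sort, day and depth, which cannot be told apart. Rel, the member with the largest myeloid over stromal ratio, was not higher at day 5 in fibroblasts (9.33 and 9.04 CPM).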

How the data were processed

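Per the labels' protocols and the matrix file headers, the authors sequenced 10x 3′ single-cell libraries, aligned reads to the mm10 reference of 10x and deposited UMI counts made with Cell Ranger 6.0.1 for barcodes called as cells. The submitters' processing notes also name Seurat 4.3.0, with no role given. The deposited counts were used as raw whole numbers, of 77842586, 122224428 and 69430907 UMIs in 7740, 11900 and 7795 barcodes.

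The members and lists were chosen with earlier results of these data known. Cells were log-normalized to 10000 UMIs and clustered with scanpy 1.11.5 on 2000 variable genes without the 10 members (30 components, 15 neighbours, Leiden resolution 1.0), the stromal libraries together. A class name needed at least 3 marker genes at 20 CPM and in 10% of the cells. Names other than fibroblast and macrophage also needed a mean log2 enrichment of at least 1. They then needed fewer markers of another class among the 10 leading genes, or, where none led, as many detected markers as the default. Where no other class met the first limits, fibroblast or macrophage was the default, unless another class had more leading markers. A cluster 0 to 18 (stromal) or 0 to 23 (myeloid) failing these rules stayed unnamed. Stromal clusters 2 and 9 held all 7 fibroblast markers but were left out of the fibroblasts over 1 leading marker of another class. Scrublet called 2, 986 and 1 cells, too few at days 0 and 9 to have worked. No doublets were removed, since the cells were set by the filter alone, and leaving out the 456, 1064 and 371 highest scores was an alternative. Genes with at least 20 UMIs over both groups were measured. From each list, the 2 genes with the largest ratio in the direction of the median and the 1 furthest the other way were named. The ratios and their intervals were tested on simulated data with known ratios.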

Additional observations from a re-analysis of the deposited data

How the results depend on the processing

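No paired analysis was possible because each group holds 1 library, and no replicate could be left out. Alternatives were looser and stricter cell filters, no cells with the highest Scrublet scores, no cells over 30000 UMIs, no cells with RNA of other cells, TMM (edgeR 4.0.16) and DESeq2 1.42.0 scaling, no count minimum with 0.5 added, averaging the CPM of single cells, thinning each cell to 2000 UMIs, equal weight for clusters, and other limits on Saa3. In fibroblasts, the count of 4 members at least 1.5-fold higher at day 5 became 1 after thinning (Nfkb2) and 1 with equal cluster weight, and, as alternatives chosen after seeing the data, 0 without the Saa3-led cluster and 7 without the Atf3-led cluster. In Pdgfra cells below 5 Saa3 UMIs, the count of 4 became 1 after thinning, 1 with the mean of each cell's CPM and 1 without the Saa3-led cluster. The cause was not tested, except that leaving a cluster out removes its cells by construction. All other alternatives left these counts within 1.5 times of 4. The count of 4 for cells with at least 5 Saa3 UMIs stayed at 4 or 5, that of members at least 1.5-fold lower at day 5 stayed at 0 in tenocytes and osteoblasts, and that in the myeloid classes lay between 8 and 10. Thinning put Relb in cells with at least 5 Saa3 UMIs at 2.61 in place of 1.72. No ratio of a single member that was past its size changed direction. Depth limits Rel, at about 9 CPM in the stroma, and all members in endothelial cells most.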
